A study of Mus musculus with 12 samples.

Results

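10 genes that act downstream of the integrated stress response were followed in wild-type and Sirt3 knock-out mouse embryonic fibroblasts (MEFs). They are Ddit3, Atf3, Trib3, Ddit4, Sesn2, Chac1, Cth, Fgf21, Gdf15 and Vldlr, taken by name from a list of effectors and secreted mitokines, and they make up 10 of the 34866 genes in the table. Sirt3 encodes a mitochondrial NAD-dependent deacetylase. The MEFs came from 13-day embryos of 129S1/SvImJ mice (Sirt3+/+, WT) or of Sirt3-/- mice (KO), taken from single embryos so that each culture has 1 sex, and the sex was read from the Y-linked Sry gene. All groups carried a plasmid with the SV40 T antigen, which immortalizes cells and is known to bind p53. RNA was taken at passage 6, 48 h after seeding, and each sex and genotype gave 3 libraries, 12 in all. The study's methods describe the plating as in triplicate wells, so the libraries of a group are taken as wells, and p-values measure the spread between wells. How many lines stand behind a group is not stated, and with 1 line a group, effects of line cannot be told apart from those of genotype and sex. The methods name separate mouse stocks for WT and KO, so genotype cannot be told apart from stock with any number of lines.

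The integrated stress response joins several kinases that sense amino acid shortage, unfolded protein, heme lack or viral RNA on 1 event, the phosphorylation of a translation initiation factor. General translation then slows while the transcription factor Atf4 is made in larger amounts. Atf4 pairs with factors of the C/EBP family on a C/EBP-ATF response element and raises genes of amino acid supply together with the effectors followed here. In cells with disturbed mitochondria the same route is known to raise Fgf21 and Gdf15, hormones that carry the signal to other tissues.

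Members with this element next to their start site were looked for in RefSeq promoter windows of GRCm38.p6, which span 250 bases before to 50 after a transcription start. Of the 10 members, 9 had a window and Cth had none, while Gdf15 and Vldlr had 2 each, which made 11 windows. For every motif below, matches are counted by member and the shares of all genes by window, so they are not strictly alike. The element core, TGATGNAA on either strand, was found in 5 of the 9 members with a window. These were Trib3, Chac1, Atf3, Fgf21 and Vldlr, against 3.97% of 32851 windows of all genes. The members were listed as effectors of this route, so a larger share than over all genes is not independent evidence. In each of the 5 the element lay on the strand opposite to the gene, so that it reads TTNCATCA below. The stretches are printed 5′ to 3′ along the gene, with the element in capitals, because they allow the copies to be compared base by base. They lie at chr2:152344011-152344082 (Trib3, minus strand), chr1:191183400-191183479 (Atf3, minus strand), chr7:45615586-45615665 (Fgf21, minus strand) and chr19:27216784-27216863 (Vldlr, plus strand, at the second of its 2 starts).
Trib3: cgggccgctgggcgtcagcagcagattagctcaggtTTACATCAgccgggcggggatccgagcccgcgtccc
Atf3: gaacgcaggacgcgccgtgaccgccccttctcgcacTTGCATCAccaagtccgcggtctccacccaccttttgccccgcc
Fgf21: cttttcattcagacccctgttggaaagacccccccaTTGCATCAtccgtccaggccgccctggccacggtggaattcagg
Vldlr: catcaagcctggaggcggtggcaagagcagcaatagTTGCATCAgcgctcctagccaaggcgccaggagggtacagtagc

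The element of Atf3, Fgf21 and Vldlr shared all of its letters, and Trib3 differed from them within it. It ended 103 bases before the start in Atf3, 132 in Fgf21 and 193 in Vldlr. In Trib3 it covered bases 15 to 22 after the RefSeq start, which is still before the start that GENCODE gives. The RefSeq start used for Atf3 lies inside the longer GENCODE gene.

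Chac1 carried the element from 193 to 186 bases before its start and, at the far end of the window, also TGACGCAA, a variant of the cyclic AMP response element that 0.490% of all windows hold. Its whole window, chr2:119350992-119351291 on the plus strand, is shown with both in capitals, since Chac1 was the only member whose windows matched both of these searched runs of letters. Other variants of the cyclic AMP element were not searched.
Chac1: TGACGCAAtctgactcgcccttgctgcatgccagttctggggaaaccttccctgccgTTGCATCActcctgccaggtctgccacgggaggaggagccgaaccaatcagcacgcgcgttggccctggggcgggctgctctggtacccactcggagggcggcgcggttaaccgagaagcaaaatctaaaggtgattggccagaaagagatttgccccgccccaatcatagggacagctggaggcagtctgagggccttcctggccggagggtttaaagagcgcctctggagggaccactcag

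Other motifs were searched in the same windows. The full cyclic AMP element TGACGTCA was in no member window and in 1.79% of all windows. The AP-1 element TGACTCA, searched on both strands, was in Ddit3 alone among the members and in 5.20% of windows. ACGTG, the core of hypoxia and E-box type elements, was in 4 members (Ddit3, Ddit4, Fgf21 and Gdf15) and 19.6% of windows, and CCACG, a part of the ER stress element, in 4 (Ddit4, Sesn2, Chac1 and Fgf21) and 32.8%. In Fgf21 these short motifs overlap each other. A match is a run of letters, not a bound site.

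**Figure D1:**
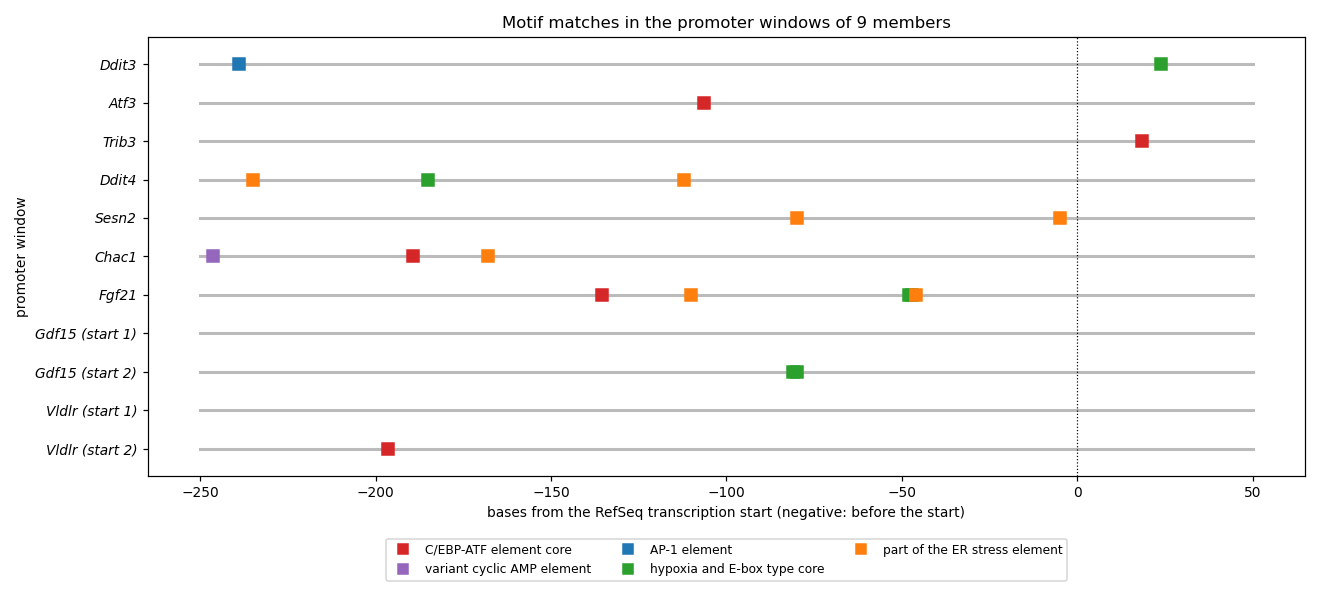
Positions of motif matches in the promoter windows of 9 members, with the distance from the RefSeq transcription start in bases on the x axis and 1 row per window; squares are matches and colours name the motif. The C/EBP-ATF element core appears in 5 members, from 193 to 200 bases before the start in Vldlr to after the start in Trib3.

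Values are TPM as deposited (a share of all transcripts, corrected for transcript length), so that levels can be compared between genes, and the depth behind them is unknown. Fold changes are differences of log2(TPM + 1), with standard errors (SE) and 95% intervals from limma over the 12504 genes that averaged 1 TPM or more, and a gene was called at an adjusted p (padj, Benjamini-Hochberg over all these genes) under 0.05. All 10 members passed the filter, Fgf21 only through the male KO libraries. In a bulk library fewer cells of a type and less RNA per cell cannot be told apart. With 3 libraries against 3, an exact permutation test cannot go below p = 0.1, and every pair of groups described below as not overlapping stood at that value.

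Before the members, the libraries were checked. Sirt3 was not lower in the libraries labelled KO: it ran from 6.59 to 9.07 TPM for male WT, 8.88 to 11.0 for male KO, 7.40 to 8.69 for female WT and 7.57 to 9.06 for female KO, and a gene-level TPM does not show whether the transcript is intact. The study also probed Sirt3 protein by immunoblot, which is not analysed here. KO below therefore means the libraries labelled KO. The 10 fibroblast markers all reached a mean of 1 TPM and summed to between 8040 and 12218 TPM a library. The sum was highest in male KO, mostly through Col1a1 (mean 4807 TPM in male KO and 3184 in male WT). Col3a1, Vim, Pdgfra and Pdgfrb were also highest in male KO. The remaining markers were not: Col1a2, Fn1, Thy1 and Dcn were highest in female KO, and Twist1 in male WT. The 6 epithelial markers summed to 9.54 to 10.6 TPM for male WT, 0.603 to 1.12 for male KO, 6.41 to 7.66 for female WT and 1.93 to 2.25 for female KO. The 4 skeletal muscle markers reached 5.97 to 7.02 TPM in female WT and at most 0.695 elsewhere. Nearly all of the female WT sum was Des (mean 6.26 TPM). The other muscle markers were not highest there, with Ckm at 0.268 TPM in female WT, 0.383 in male KO and 0.394 in female KO. The 4 liver markers stayed at or under 0.293 TPM, the 4 endothelial markers under 5.76, the 5 blood and macrophage markers under 11.4, and the 4 neural markers, mostly Nes and Tubb3, between 50.1 and 93.2. The part of these differences in the results was not tested. Ddit3 shares 68 of its 1713 exonic bases with Mars on the other strand, and whether the libraries keep strand is not stated. Mars itself averaged 119 ± 7.05 TPM in WT and 126 ± 5.43 in KO males (SD, n = 3) and was not called there (padj = 0.377, limma).

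The first comparison set the libraries labelled KO against those labelled WT within each sex. In male KO MEFs 9 of the 10 members were called higher and none lower, where 10.7% of all genes tested were called higher and 10.9% lower. Atf3 was the member not called. Fgf21 had to differ to pass the filter, since the other 3 groups averaged under 1 TPM, and without it 8 of 9 members were called higher. Fold changes ran from 0.33 for Ddit3 to 2.14 for Fgf21, with Trib3, Gdf15 and Vldlr between 1.37 and 1.46 and Chac1 and Cth near 1. The median of the 9 members without Fgf21 was 0.97, against -0.02 for all genes. In female KO MEFs 1 member, Ddit4, was called higher and 1, Cth, was called lower, where 5.63% of all genes were called higher and 5.84% lower (49.1% of calls were higher, and 59.3% after median-of-ratios scaling), and the median of the same 9 members was -0.14 against -0.02. Cth was thereby the member called in opposite directions in the 2 sexes, a pattern of 81 genes in all (0.648%), and Ddit4 the member called higher in both, with 304 genes in all (2.43%). The members were listed with earlier results of these libraries known, so these counts describe the list and are not independent evidence of a direction.

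Without any model, all 3 male KO libraries lay above all 3 male WT libraries for 9 members (8 without Fgf21) and below them for none, a separation seen for 18.8% and 21.2% of all genes. For 8 members, Fgf21 among them and all but Cth and Atf3, the male KO libraries also lay above the 9 others, which 7.92% of genes did. In females the KO libraries lay above the WT libraries for 3 members, Ddit4, Sesn2 and Gdf15 (14.9% of all genes), and below them for 5, Trib3, Chac1, Atf3, Fgf21 and Cth (18.7%). Only Ddit4 and Cth among these 8 passed the test over all genes.

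**Figure D2:**
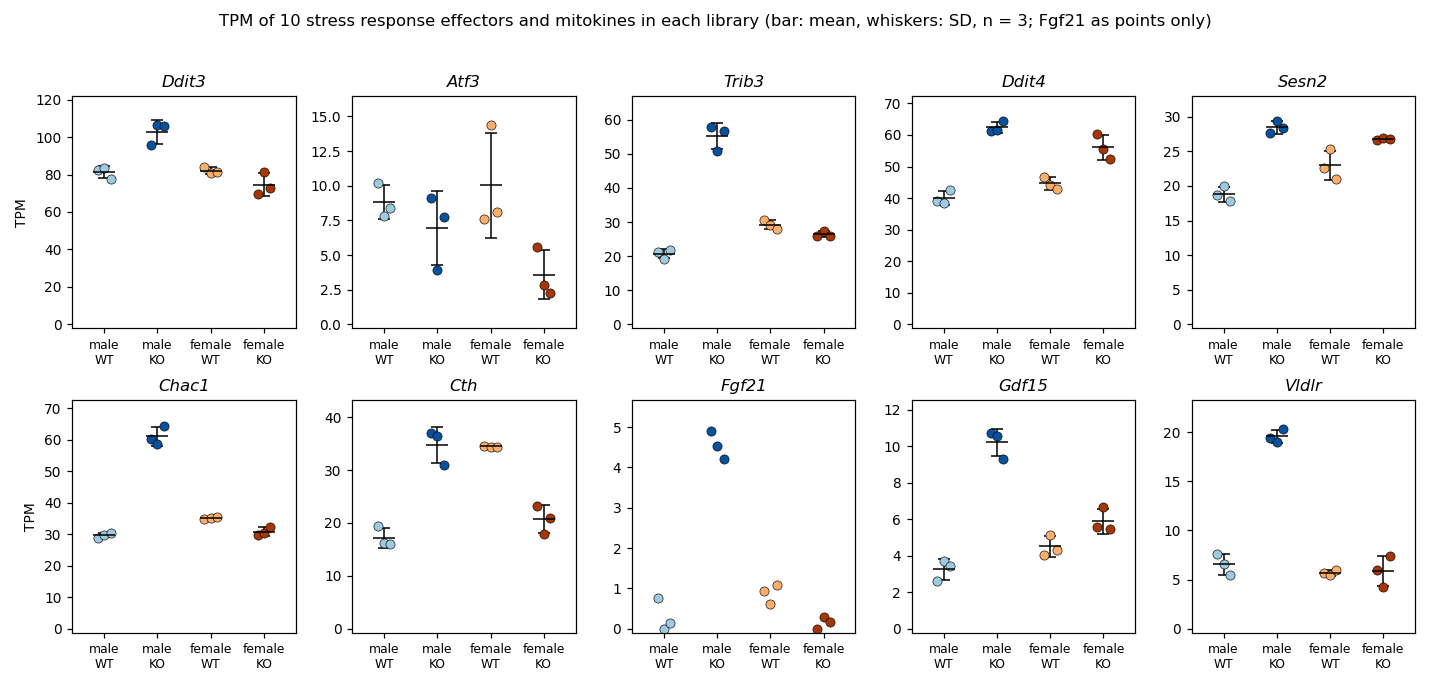
TPM of each member (y axis, starting at 0) in the 3 libraries of each group; points are libraries, bars the mean and whiskers the SD, with Fgf21 as points only since 2 of its libraries are listed at 0. The male KO libraries stand highest for every member except Atf3, whose highest library is female WT, and Cth, which is as high in female WT.

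Ddit3 (ENSMUSG00000025408.15, chromosome 10 of GRCm38 from 127290774 to 127296288, plus strand) encodes Chop, a transcription factor of the C/EBP family that Atf4 raises and that can lead to cell death. It had the highest level of the members. Replicates 1 to 3 read 82.5, 83.7 and 77.7 TPM for male WT, 95.6, 107 and 106 for male KO, 84.1, 80.8 and 81.3 for female WT and 69.7, 81.3 and 72.8 for female KO. The male KO libraries were above all others, while the other groups overlapped. The male difference was 0.33 (SE 0.06, padj = 0.00786, limma), the smallest called among the members in males, and the female one -0.14, with an interval from -0.29 to 0.01 (padj = 0.202, limma). A second identifier of the symbol (ENSMUSG00000116429.1) was at 0 in all libraries.

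Atf3 (ENSMUSG00000026628.13, chromosome 1, 191170296 to 191218039, minus strand) is a stress and immediate early transcription factor that acts beside Atf4. Its TPM were 10.2, 7.83 and 8.40 in male WT, 9.14, 3.94 and 7.73 in male KO, 7.62, 14.4 and 8.08 in female WT and 5.61, 2.86 and 2.27 in female KO. Male KO overlapped male WT, and female KO lay below female WT without overlap. Neither difference was called, at -0.36 in males (interval -0.99 to 0.27, padj = 0.380, limma) and -1.28 in females (SE 0.33, padj = 0.0515, limma). The female difference was called without female KO replicate 1 (padj = 0.0352, limma) and with all 12 libraries in 1 fit (padj = 0.0221, limma). Replicates of Atf3 were far apart: its coefficient of variation was 38.7% in male KO, 37.6% in female WT and 49.9% in female KO, where the median of the 1435 genes with a mean of 5 to 10 TPM was 12.3%, 11.7% and 12.3%. The female fold change of Atf3 ranked 12433 of 12504 genes from the highest.

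Trib3 (ENSMUSG00000032715.9, chromosome 2, 152337422 to 152344032, minus strand) is a pseudokinase that binds Akt and restrains Atf4 and Chop in a feedback loop. Male WT libraries read 21.2, 19.3 and 21.7 TPM, and those of male KO 57.9, 50.9 and 56.8. Female WT libraries were at 30.7, 29.1 and 28.0 and female KO at 25.9, 27.4 and 25.9. The 4 groups did not overlap, with female WT above male WT and female KO between them. On the log2 scale male KO was higher by 1.37 (SE 0.08, padj = 4.28e-05, limma), 2.66 times the mean TPM of male WT. Female KO differed by -0.14 (interval -0.28 to -0.0015, padj = 0.180, limma).

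Ddit4 and Sesn2 both hold back mTORC1, the kinase complex that drives growth. Ddit4, also called Redd1 (ENSMUSG00000020108.4, chromosome 10, 59949669 to 59951834, minus strand), acts through the TSC complex. Its TPM were 39.1, 38.6 and 42.5 in male WT, 61.2, 61.5 and 64.5 in male KO, 46.8, 44.3 and 42.9 in female WT and 60.4, 55.6 and 52.5 in female KO. Both KO groups lay above both WT groups, a pattern whose share of all genes was not counted. The rise was 0.63 in males (SE 0.06, padj = 0.000440, limma) and 0.32 in females (SE 0.06, padj = 0.0238, limma), and the female call was lost without the filter on low values and on leaving out female WT replicate 2 or 3 or female KO replicate 1 or 2 (padj up to 0.0802).

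Sesn2 (ENSMUSG00000028893.8, chromosome 4, 132492032 to 132510501, minus strand) encodes Sestrin 2, a leucine sensor. Its TPM were 18.6, 19.97 and 17.7 in male WT, 27.6, 29.4 and 28.3 in male KO, 22.5, 25.3 and 21.1 in female WT and 26.6, 26.9 and 26.8 in female KO. Again both KO groups were above both WT groups, and male KO stood only 1.06 times above female KO in mean TPM. The male rise of 0.57 was called (SE 0.07, padj = 0.00171, limma), and the female value of 0.22 was not (interval 0.04 to 0.40, padj = 0.123, limma).

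Chac1 and Cth sit at opposite ends of cysteine and glutathione use. Chac1 (ENSMUSG00000027313.3, chromosome 2, 119351229 to 119354381, plus strand) breaks glutathione down. It stood at 28.8, 29.9 and 30.3 TPM for male WT, 60.3, 58.5 and 64.2 for male KO, 34.8, 35.2 and 35.4 for female WT and 29.6, 30.3 and 32.4 for female KO. Male KO was 2.06 times male WT in mean TPM, and the log2 difference of 1.02 (SE 0.06, padj = 4.40e-05, limma) was called. Female KO lay below female WT without overlap, yet the difference of -0.19 was not called (SE 0.05, padj = 0.0705, limma).

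Cth (ENSMUSG00000028179.12, chromosome 3, 157894248 to 157925077, minus strand) encodes cystathionine gamma-lyase, which makes cysteine in transsulfuration. Its TPM were 19.4, 16.2 and 16.02 in male WT, 37.1, 36.4 and 30.9 in male KO, 34.5, 34.4 and 34.5 in female WT and 23.2, 17.9 and 20.9 in female KO. Male KO and female WT shared the same high level, and male WT and female KO a low one. Cth rose by 0.97 in males (SE 0.10, padj = 0.000922, limma) and fell by 0.72 in females (SE 0.09, padj = 0.00541, limma). Both calls held in all 14 alternatives computed for each.

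Fgf21 (ENSMUSG00000030827.5, chromosome 7, 45613886 to 45615490, minus strand) is a hormone best known from liver, where it is raised by fasting. It was listed at 0.754, 0.00 and 0.144 TPM for male WT, 4.91, 4.54 and 4.21 for male KO, 0.939, 0.602 and 1.07 for female WT and 0.00, 0.285 and 0.159 for female KO. Outside male KO the highest library stood at 1.07 TPM. The male difference was 2.14 (SE 0.24, padj = 0.00110, limma), and with no filter on low values its padj was 0.00974 (limma). The female difference of -0.70 was between values near 0 and was not called (SE 0.21, padj = 0.0811, limma). The size of each Fgf21 difference depends on the constant added before the log. With 0.1 TPM in place of 1 the male value was 4.08 (padj = 0.00953, limma) and the female one -2.14 (padj = 0.0884, limma).

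Gdf15 (ENSMUSG00000038508.7, chromosome 8, 70629393 to 70632456, minus strand) is a hormone of the TGF-beta family that acts on the hindbrain and lowers appetite. Its TPM were 2.60, 3.72 and 3.46 in male WT, 10.7, 10.6 and 9.33 in male KO, 4.03, 5.15 and 4.32 in female WT and 5.55, 6.68 and 5.45 in female KO. Unlike Fgf21, it was higher in female KO than in female WT in each library. The male rise was 1.40 (SE 0.14, padj = 0.000625, limma), 3.13 times in mean TPM, and the female value of 0.33 was not called (interval 0.01 to 0.64, padj = 0.169, limma).

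Vldlr (ENSMUSG00000024924.14, chromosome 19, 27216484 to 27254231, plus strand), a receptor for triglyceride-rich lipoproteins and for reelin, separated male KO from the rest most simply. It read 7.59, 6.59 and 5.43 TPM for male WT, 19.4, 19.1 and 20.4 for male KO, 5.63, 5.43 and 5.98 for female WT and 5.92, 4.27 and 7.35 for female KO. The other 3 groups overlapped. Male KO was higher by 1.46 (SE 0.12, padj = 0.000274, limma), and the female difference of 0.01 had an interval from -0.41 to 0.43 (padj = 0.977, limma).

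**Figure D3:**
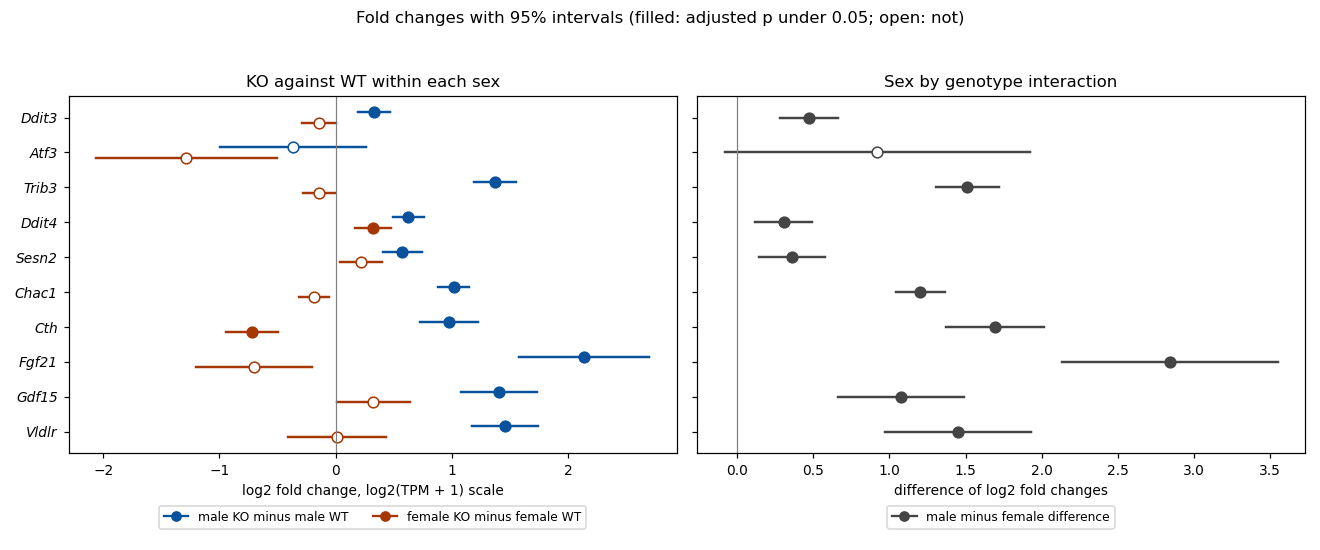
Log2 fold changes of KO against WT in males and females (left) and their difference, male minus female (right), with 95% limma intervals, not adjusted, as lines; filled points have an adjusted p under 0.05. In males 9 members lie right of 0 and are filled, in females Ddit4 and Cth alone are filled, and every difference between the sexes is above 0.

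Whether the sexes differed was tested directly by the sex by genotype interaction over all 12 libraries. It was called for 9 members (8 of 9 without Fgf21), each with the larger value in males, where 6.70% of all genes were called in that direction and 6.33% in the other. The difference was 2.84 for Fgf21 (SE 0.32, padj = 0.000118, limma), 1.69 for Cth (SE 0.15, padj = 1.53e-05, limma), 1.51 for Trib3 (SE 0.09, padj = 1.37e-06, limma) and 1.20 for Chac1 (SE 0.07, padj = 1.12e-06, limma). For Fgf21 it was 6.22 with 0.1 TPM added in place of 1 (padj = 0.00251, limma), and with no filter its padj was 0.000186 (limma). The difference was 1.45 for Vldlr, 1.08 for Gdf15 and 0.47 for Ddit3. For the mTORC1 brakes it was small, 0.36 for Sesn2 (padj = 0.0354, limma) and 0.30 for Ddit4 (padj = 0.0378, limma). Those calls were lost in 9 of 19 alternatives for Sesn2 and in 13 of 19 for Ddit4, and with the replicate number as a block that of Ddit4 was lost (padj = 0.0608, limma). Leaving out 1 library kept the call of Ddit4 only for male WT replicate 3, female WT replicate 3 or female KO replicate 1 (padj up to 0.0903 otherwise), and that of Sesn2 only for male WT replicate 2, male KO replicate 1 or female WT replicate 3 (padj up to 0.0832 otherwise). For Atf3 the difference of 0.92 was not called (interval -0.08 to 1.92, padj = 0.240, limma).

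The sexes were also compared within WT and within KO, which are separate cultures and not the same cells before and after. Between WT groups 3 members were called lower in males and none higher, where 6.56% of genes were lower and 6.26% higher. Cth was lower by 0.97 (SE 0.08, padj = 0.000586, limma), so that male WT held 0.499 times the TPM of female WT. Trib3 was lower by 0.48 (SE 0.07, padj = 0.00597, limma) and Chac1 by 0.24 (padj = 0.0226, limma), and the call of Chac1 was lost on leaving out any of the 6 WT libraries and with the replicate block (padj = 0.0717, limma). Between KO groups 7 members (6 of 9 without Fgf21) were called higher in males and none lower, where 8.17% of genes were higher and 8.39% lower. These were Fgf21 (2.28, and 4.43 with 0.1 TPM added), Vldlr (1.62), Trib3 (1.03), Chac1 (0.96), Cth (0.73), Gdf15 (0.70) and Ddit3 (0.46). Ddit4 differed by 0.15 (interval 0.0047 to 0.30), Sesn2 by 0.08 (interval -0.05 to 0.22) and Atf3 by 0.80 (interval -0.03 to 1.63), and none of the 3 was called. These comparisons share libraries with each other and with the interaction.

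Ordered by mean TPM, the members fell into a few sequences of groups, read here after their values were seen. How many of all genes follow these sequences, or have no overlap between groups, was not counted. Trib3, Chac1 and Cth ran from male KO through female WT and female KO to male WT. Among their neighbours, male KO and female WT overlapped for Cth, and female KO and male WT for Cth and Chac1. Ddit4, Sesn2 and Gdf15 ran from male KO through female KO and female WT to male WT with no overlap at any step. Ddit3 and Fgf21 ran from male KO through female WT and male WT to female KO, and below male KO no neighbours were apart. For Vldlr the order was male KO, male WT, female KO and female WT, with the last 3 overlapping, and for Atf3 it was female WT, male WT, male KO and female KO, each overlapping the next.

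Atf4 and Atf5, factors of the pathway, were set beside them. Atf4 mRNA stood at 204 to 218 TPM for male WT, 365 to 386 for male KO, 278 to 290 for female WT and 259 to 260 for female KO, the sequence seen for Trib3, Chac1 and Cth. Atf5 stood at 203 to 212 TPM for male WT, 318 to 327 for male KO, 196 to 211 for female WT and 189 to 213 for female KO, where, as for Vldlr, male KO alone was apart. Over the 12 libraries, Pearson's r of log2(TPM + 1) with Atf4 was 0.97 for Trib3, 0.92 for Chac1, 0.90 for Gdf15 and 0.86 for Fgf21. It was 0.82 for Cth, 0.81 for Sesn2, 0.78 for Ddit4, 0.77 for Vldlr, 0.74 for Ddit3 and -0.06 for Atf3. With Atf5 it was 0.98 for Vldlr, 0.97 for Chac1, 0.91 for Fgf21, 0.90 for Trib3, 0.87 for Ddit3 and 0.81 for Gdf15. The lowest with Atf5 were 0.63 for Ddit4, 0.55 for Cth, 0.54 for Sesn2 and 0.05 for Atf3. Libraries of 1 group lie close together, so such values rest largely on the 4 groups, and Atf4 is known to be set mainly by translation.

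**Figure D4:**
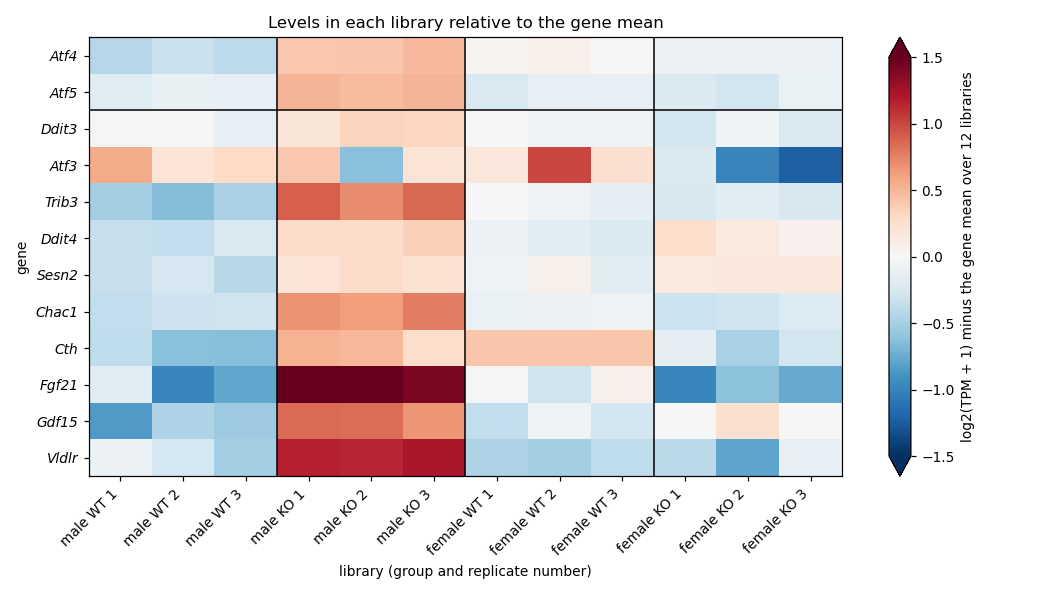
Levels of Atf4, Atf5 and the 10 members (rows) in the 12 libraries (columns), as log2(TPM + 1) minus the mean of the gene, red above and blue below, with the scale limited to 1.5 either way. The male KO columns are red in every row but Atf3, whose male KO libraries differ among themselves, and Cth is also red in female WT.

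For each member the 2 tested genes with the most similar pattern over the 12 libraries were named, by the same r. For Ddit3 these were Dbnl (0.95) and Txndc12 (0.95), for Ddit4 Cxcl14 (0.98) and Smoc1 (0.97), for Trib3 Mmp2 (0.99) and Slc29a1 (0.99), and for Chac1 Psat1 (0.99) and Scpep1 (0.98). For Sesn2 they were Csgalnact1 (0.98) and Bgn (0.96), for Fgf21 Slc16a3 (0.97) and Hmox1 (0.96), for Gdf15 Dysf (0.97) and Pck2 (0.97), for Cth Emb (0.95) and Cthrc1 (0.95), and for Vldlr Spcs3 (0.98) and Atf5 (0.98). Atf3 had the least similar partners, Gm12219 (0.89) and Ndrg2 (0.88). With 12504 genes and 4 groups, high values are common, and they say nothing of shared control.

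Genes around the members were taken from 9 lists, and some genes stand in several of them. Of all genes tested, 10.7% were called higher and 10.9% lower in male KO. In female KO these shares were 5.63% and 5.84%, and the counts of short lists are to be read against them. Of 12 kinases, phosphatase subunits and transcription factors of the response, 5 were called higher and 1 lower in male KO, with a median of 0.19, and 1 higher and 1 lower in female KO, with a median of -0.06. In males the smallest padj were those of Atf4 (0.82), Nupr1 (1.26), a small stress-induced chromatin protein, and Cebpb (0.95), a C/EBP partner. In females Nupr1 was higher (0.30) and Atf4 lower (-0.13, padj = 0.0285, limma), while Ppp1r15a, a phosphatase subunit that ends the response, was at -0.38 without a call (padj = 0.0513, limma).

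Of 30 other known targets of Atf4 and Chop, 24 were called higher and none lower in male KO, with a median of 0.37. In female KO 2 were higher and 7 lower, with a median of -0.10, and the interaction was called for 24, all larger in males. In males Pycr1 (1.26), which makes proline, Herpud1 (0.87), of ER-associated degradation, and Gars (0.38), which charges glycine tRNA, had the smallest padj. In females they were Jdp2 (0.39) and Herpud1 (0.40), called higher, and Shmt2 (-0.18), of mitochondrial folate metabolism, called lower. The medians of all genes were -0.02 in both sexes.

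Of 16 family relatives of the members, 13 were tested, and 3 were called higher and 1 lower in each sex, with medians of 0.18 in males and 0.03 in females. Cebpb (0.95), Jdp2 (0.58), a repressor related to Atf3, and Cebpd (0.59) led in males, and Jdp2 (0.39) and Lrp8 (0.30), a reelin receptor, were higher in females. In males Lrp8 (0.15) was not called. Cebpb and Jdp2 are also counted in the lists above.

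Receptors for the 2 hormones were partly missing. Gfral, the receptor of Gdf15, was listed at 0 in all 12 libraries, and Klb, the co-receptor of Fgf21, had a mean of 0.0669 TPM. Of 7 receptors and co-receptors 4 were tested, with 1 called higher in male KO and 2 in female KO, and medians of 0.02 and 0.13. In males these tests gave 0.46 for Fgfr2 (called), -0.06 for Fgfr1 and 0.10 for Ret. In females Ret, the signalling partner of Gfral, was higher by 1.90 (SE 0.11, padj = 0.000201, limma) and Fgfr1 by 0.36 (padj = 0.00105, limma), and Fgfr2 stood at -0.15.

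Around Chac1 and Cth, 10 of 12 genes of transsulfuration and glutathione were tested, and Cbs, the step before Cth, had a mean of 0.850 TPM. None was called higher in male KO and 2 were lower, Gsr (-0.45), which reduces glutathione, and Gss (-0.28), which makes it. Over all genes 10.7% were higher and 10.9% lower in male KO, so these counts of 10 genes are not far from those shares. Slc7a11, the cystine carrier, was at 0.45 in males (padj = 0.0690, limma) and -0.35 in females (padj = 0.113, limma). In female KO none of the 10 was called, with Mpst at -0.34 and Gclc at -0.14, and the list medians were -0.0050 in males and -0.18 in females.

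Around Ddit4 and Sesn2, none of 11 genes that restrain or feed mTORC1 was called higher in either sex. Deptor (-0.60), an mTOR inhibitor with a mean of 1.19 TPM, was lower in male KO and Tsc2 (-0.36), of the TSC complex, in female KO. Over all genes 10.7% were higher and 10.9% lower in male KO, and 5.63% and 5.84% in female KO. The counts of this list lie near those shares. Nprl3 (-0.27) and Rheb (-0.08) in males and Rheb (-0.11) and Akt1s1 (-0.19) in females were not called. The medians of this list were -0.10 and -0.11.

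The 3 remaining lists cover other routes to the same members. Among 11 p53 targets, 2 were called higher and 1 lower in male KO, with a median of 0.0023, and 4 higher and none lower in female KO, with a median of 0.21. The male counts are not far from the shares of all genes, 10.7% higher and 10.9% lower. In female KO those shares were 5.63% and 5.84%. Cdkn1a was higher by 0.23 in males and 0.34 in females, Phlda3 by 0.26 and 0.49 and Ccng1 by 0.37 in females, and Aen was lower by -0.15 in males. Sesn2 and Gdf15 are themselves p53 targets in other cells. Among 11 hypoxia targets, 5 were higher in male KO and 1 in female KO and none lower, with medians of 0.28 and 0.16. P4ha1 (0.42), Pdk1 (1.22) and Bnip3 (0.66) led in males. In females P4ha1 (0.23) was called, and Egln1 (0.22) and Ndrg1 (-0.26) were not. Ddit4 and Vldlr are known to respond to hypoxia as well.

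Of 12 immediate early genes, the class to which Atf3 also belongs, 4 were called higher and 2 lower in male KO, with a median of 0.04. In female KO none was higher and 7 were lower, with a median of -0.27. In males Dusp1 (1.22), a phosphatase, was higher and Jun (-0.61) and Fosl1 (-0.49) lower, and in females Fosl1 (-0.46), Myc (-0.32) and Ier3 (-0.47) were lower. Atf3, at -1.28 in females, lay below all of these without a call of its own.

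**Figure D5:**
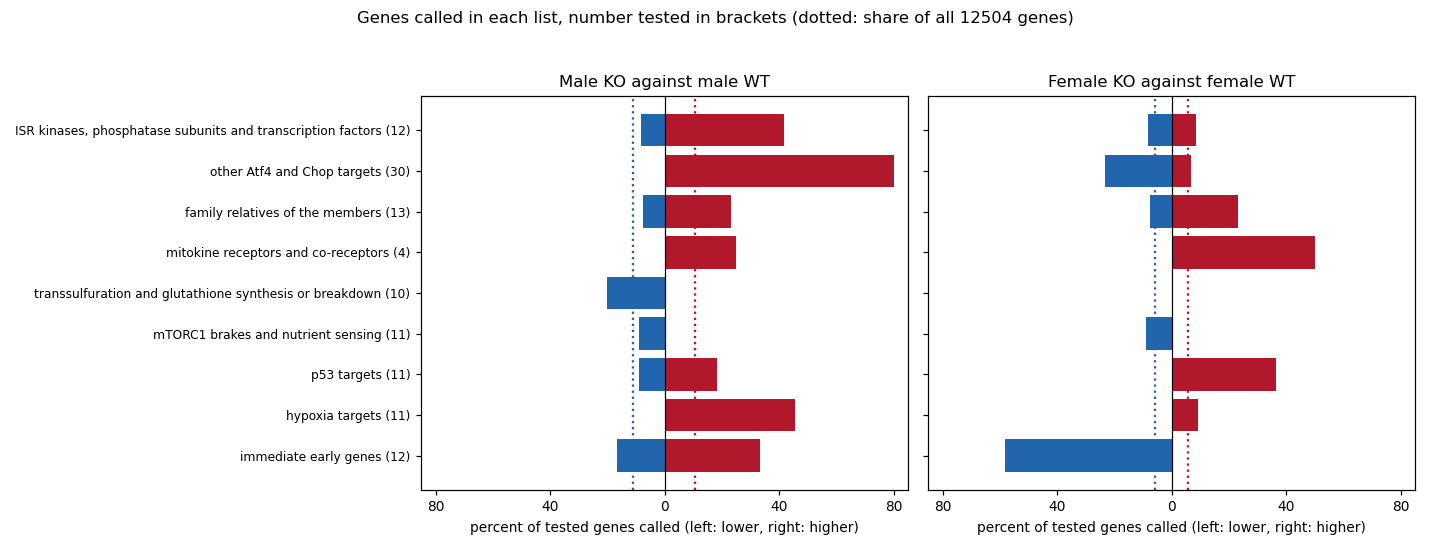
Percent of the tested genes of each list (rows, number tested in brackets) called lower (left of 0, blue) or higher (right of 0, red) in KO, in males and in females; dotted lines give the share of all genes called. In males the bar of other Atf4 and Chop targets is the longest, with 24 of 30 higher, and in females that of immediate early genes, with 7 of 12 lower.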

How the data were processed

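Polyadenylated RNA was sequenced and the authors quantified reads with Salmon (1.10.1 in the processing notes) on GRCm38. They deposited TPM, 1 column for each of 12 libraries, for 34866 genes with Ensembl identifiers; the annotation release is not given in the sources used here. Since a TPM keeps no total of reads, depth is unknown and counting error cannot be given. Adapters and low-quality bases had been trimmed before.

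Names and positions came from GENCODE M21 of GRCm38, which held 99.2% of the identifiers (93.4% with the same version), and promoter sequences from RefSeq (GRCm38.p6). A count model, as in the study, does not suit these values. Instead log2(TPM + 1) of the 12504 genes that averaged 1 TPM or more was fitted with limma 3.58.1 (R 4.3.3, eBayes with trend). KO and WT, and the sexes, were compared in fits of 6 libraries, and the interaction in a fit of 12, with Benjamini-Hochberg adjustment over all genes. Medians, permutation tests and figures used Python 3 libraries (SciPy, Matplotlib), and the code was tested on simulated data.

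The members and lists were chosen with earlier results of these data known. Named genes are the members, Sirt3, Atf4, Atf5, the 3 genes of each list with the smallest adjusted p in each sex, and the 2 genes most like each member. Mars, Gfral, Klb and Cbs, and the male value of Lrp8, were added after their values were seen, and 1 gene that the rule names is not reported here. Counts and medians without Fgf21 were also added after its values were seen. Alternatives were another pseudocount (0.1 TPM), no filter or a mean of 5 TPM, median-of-ratios and quantile scaling, no trend, all libraries in 1 fit, the replicate number as a block, and each library left out.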

Additional observations from a re-analysis of the deposited data

Results flagged for a closer look

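The KO minus WT difference was larger in males than in females for 9 members, by the sex by genotype interaction (limma over 12 libraries, Benjamini-Hochberg over 12504 genes). Without Fgf21 it was 8 of 9 members, since Fgf21 passed the filter only through the male KO libraries. On the log2(TPM + 1) scale the male minus female value was 2.84 for Fgf21 (6.22 with 0.1 TPM added in place of 1), 1.69 for Cth, 1.51 for Trib3, 1.45 for Vldlr and 1.20 for Chac1. It was 1.08 for Gdf15, 0.47 for Ddit3, 0.36 for Sesn2 and 0.30 for Ddit4. In Cth each sex was called by itself, in opposite directions. With Ddit4 and Sesn2 both KO groups lay above both WT groups, the female difference of Sesn2 was not called, and the interaction call was lost in 13 of 19 alternatives for Ddit4 and 9 of 19 for Sesn2. For Trib3 and Chac1 all 3 male KO libraries lay above male WT and all 3 female KO libraries below female WT, and the female difference was not called. The same held for Fgf21, where a high male KO was needed to pass the filter. Over all genes, 18.8% had male KO above male WT without overlap, and 18.7% had female KO below female WT. The share with both, or with both KO groups above both WT groups, was not counted. Groups of 3 libraries were too small for a search for single outlying libraries.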

How the results depend on the processing

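Of 745 member fold changes recomputed under the alternatives, 697 kept their direction and their side of the threshold, 34 lost a call, 6 gained one and 8 changed sign, none of these 8 from a called value. With a library left out, Vldlr in females ran from -0.145 to 0.188, Atf3 between WT groups from -0.274 to 0.142 and Ddit3 between WT groups from -0.0354 to 0.0177. Ddit3 between WT groups also became 0.00823 with median-of-ratios scaling and 0.00423 with quantile normalization. The 9 male calls held in every alternative in which the gene was tested, and Fgf21 is not tested at a mean of 5 TPM.

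In female KO the 1 member called higher, Ddit4, became 0 without the filter on low values, and from 0 to 1 with a library left out. The 1 member called lower became 2 with a mean of at least 5 TPM (Atf3), 2 without the trend (Fgf21), 3 with all 12 libraries in 1 fit (Atf3 and Chac1), and from 1 to 2 with a library left out. For all genes in females, 1434 calls became 670 with the replicate block, and from 774 to 835 with a library left out. Between WT groups 1603 calls became from 1037 to 1243, and between KO groups 2070 became from 1328 to 1824, on leaving out a library, in fits of fewer samples.

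Same-numbered libraries did not deviate together (r from -0.06 to 0.08 over 12 pairs), so no pairing by number was detected. Such values cannot show how same-numbered wells were handled. With the replicate block, members called were 9 in males, 1 higher and 1 lower in females, 8 in the interaction (Ddit4 lost), 2 between WT groups (Chac1 lost) and 7 between KO groups. Median-of-ratios scaling moved the share of calls that were higher in female KO from 49.1% to 59.3%, and the medians of all genes by less than 0.1. The sum over both Ddit3 identifiers equals the one used. Fgf21 lay near 0 outside male KO, so its fold changes move with the constant added.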
